A study of Homo sapiens and Mus musculus with 12 samples.

Results

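CD94/NKG2 receptors and NKG2D are C-type lectin-like receptors through which natural killer (NK) cells read stress and class I molecules on other cells. Their genes were taken by symbol from 2 tables of RNA-seq read counts: Klrd1, Klrc1, Klrc2, Klrc3 and Klrk1 among 22021 mouse genes, and KLRD1, KLRC1, KLRC2, KLRC3 and KLRK1 among 18304 human genes, 10 genes in all. All 10 were listed once in their table and passed the filter on low counts.

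The mouse libraries came from splenic NK cells sorted from mice of 8 to 12 weeks. The control group (WT, n = 3) carried Ehmt2 flox/flox alleles without Cre on a C57BL/6J background. The knockout group (KO, n = 3) carried the same alleles with Ncr1 iCre, which drives deletion in cells that have switched on Ncr1, a gene of NK cells that ILC1 and some other innate lymphoid cells also express. A genotype field of the labels names Ezh2 for the knockout animals where the sample titles name EHMT2, and the titles were followed. The human libraries came from NK92MI, a single NK lymphoma line that makes its own interleukin-2, grown with BIX-01294, an inhibitor of EHMT2 (BIX, n = 3), or with the solvent DMSO (DMSO, n = 3). This line was treated at 0.25 µM for 5 days, a schedule that the sources do not tie to these libraries by name. No source used here says whether the human libraries came from separate cultures, so the p-values may measure technical spread alone. Ehmt2 was lower in the KO libraries (137 to 171 against 275 to 285 CPM in WT, where CPM is the count per 1000000 TMM-scaled library counts), and EHMT2 was lower with BIX (35.8 to 40.4 against 54.3 to 61.6 CPM).

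CD94, encoded by Klrd1, is the shared subunit: it pairs with an NKG2 chain on the cell surface and has almost no signalling tail of its own. NKG2A, from Klrc1, carries inhibitory motifs in its tail, whereas NKG2C (Klrc2) and NKG2E (Klrc3) signal for activation through the adaptor DAP12 (Tyrobp). These pairs recognise the non-classical class I molecule HLA-E in humans and Qa-1 (H2-T23) in mice, which display peptides cut from other class I chains. NKG2D, from Klrk1, forms a homodimer without CD94, signals through DAP10 (Hcst) and binds stress-induced ligands such as MICA and the RAE-1 proteins.

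The 5 genes lie close together in the NK gene complex. In mouse (GRCm38, GENCODE annotation) Klrd1 spans chr6:129591782-129598775 on the plus strand. It is followed on the minus strand by Klrk1 at chr6:129610323-129623864, Klrc3 at chr6:129639064-129643337, Klrc2 at chr6:129647496-129660689 and Klrc1 at chr6:129666015-129678973. The human genes (GRCh38) keep that order, though KLRC4 lies between KLRK1 and KLRC3, with KLRD1 at chr12:10226058-10329608 on the plus strand and, on the minus strand, KLRK1 at chr12:10372353-10391874, KLRC3 at chr12:10412315-10420595, KLRC2 at chr12:10426854-10442300 and KLRC1 at chr12:10442264-10454685.

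The NKG2 genes are close copies, which bears on how reads were divided among them. The first 120 coding bases of the 3 human genes, each within 1 coding exon, are shown because they hold the start of the tail where the inhibitory and activating chains part. Capitals mark bases that differ from KLRC1.
KLRC1: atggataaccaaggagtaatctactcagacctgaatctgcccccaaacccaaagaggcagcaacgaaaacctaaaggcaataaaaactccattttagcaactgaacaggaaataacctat
KLRC2: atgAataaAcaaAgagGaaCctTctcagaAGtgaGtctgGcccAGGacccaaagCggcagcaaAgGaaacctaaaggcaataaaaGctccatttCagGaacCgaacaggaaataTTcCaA
KLRC3: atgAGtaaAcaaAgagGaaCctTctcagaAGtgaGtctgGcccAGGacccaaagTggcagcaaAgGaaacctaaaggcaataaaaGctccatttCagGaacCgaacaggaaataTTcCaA

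These stretches lie at chr12:10451037-10451156, chr12:10435867-10435986 and chr12:10420431-10420550 (GRCh38, minus strand). KLRC2 differed from KLRC1 at 24 of the 120 bases and KLRC3 at 25, but KLRC2 and KLRC3 differed from each other at 2. The last 120 coding bases of the mouse genes, read across 2 coding exons, are shown because they are nearly the same in all 3 genes. Capitals again mark differences from Klrc1.
Klrc1: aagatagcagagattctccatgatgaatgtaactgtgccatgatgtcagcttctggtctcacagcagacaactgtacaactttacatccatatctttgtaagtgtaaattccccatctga
Klrc2: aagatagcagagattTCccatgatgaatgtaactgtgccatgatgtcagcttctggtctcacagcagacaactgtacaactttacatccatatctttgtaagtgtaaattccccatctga
Klrc3: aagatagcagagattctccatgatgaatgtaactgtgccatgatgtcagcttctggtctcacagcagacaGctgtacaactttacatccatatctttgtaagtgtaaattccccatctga

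They lie within chr6:129674859-129675301, chr6:129656371-129656813 and chr6:129639085-129639530 (GRCm38, minus strand). Klrc2 differed from Klrc1 at 2 of these bases and Klrc3 at 1. Over the whole aligned coding sequence, Klrc2 and Klrc3 were 94.9% identical and KLRC2 and KLRC3 96.1%, against 83.1% for Klrc1 and Klrc2 and 88.6% for KLRC1 and KLRC2. Of all 100-base windows of 1 transcript, 15.9% in Klrc1, 17.0% in Klrc2, 20.9% in Klrc3, 7.93% in KLRC1, 41.4% in KLRC2 and 37.2% in KLRC3 occurred unchanged in another gene, while Klrd1, Klrk1 and KLRD1 had none. KLRK1 shared 99.3% of its windows with the read-through gene KLRC4-KLRK1, so its own count holds only reads that could be told from that gene. Levels of single KLRC2, KLRC3 and KLRK1 genes are therefore uncertain.

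In the mouse comparison, which asks what loss of Ehmt2 in NK cells does to their transcripts, all 5 receptor genes rose by 1.78- to 2.03-fold. The chain of the inhibitory receptor, the chains of the activating ones, their shared partner and NKG2D moved by nearly the same amount. At an adjusted p under 0.05 (edgeR quasi-likelihood test, Benjamini-Hochberg adjustment over 13189 genes) 5 of 5 were called higher, where 4.44% of all genes tested were called higher, 7.43% lower and 11.9% in either direction. DESeq2 called the same 5, and 23.4% of all genes. All 5 log2 fold changes were above 0, as were 51.5% over all genes. No KO library overlapped a WT library for any of the 5, a separation that 19.1% of all genes showed upward, 19.3% downward and 38.5% either way.

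Klrd1, the CD94 subunit, stood at 463, 454 and 519.8 CPM in the KO libraries and at 221, 361 and 222 CPM in WT. The second WT library was the highest of its group and still below every KO library. Its log2 fold change was 0.84 ± 0.19 (SE, n = 3 per group, edgeR adjusted p = 0.0416).

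Klrc1, the inhibitory NKG2A chain, stood at 219, 287 and 306 CPM in KO and at 156, 190.4 and 109 CPM in WT. The first KO library was the lowest of its group and lay just above the second WT library. The log2 fold change was 0.83 ± 0.21 (SE, n = 3 per group, edgeR adjusted p = 0.0471).

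Klrc2, the activating NKG2C chain, reached 385, 413 and 468 CPM in KO and 173, 319 and 202 CPM in WT, a log2 fold change of 0.87 ± 0.22 (SE, n = 3 per group, edgeR adjusted p = 0.0465). Klrc3, the NKG2E chain and the lowest of the 5 in CPM, reached 72.1, 100.2 and 109.9 CPM in KO and 34.2, 65.9 and 38.9 CPM in WT, a log2 fold change of 1.02 ± 0.26 (edgeR adjusted p = 0.0473). Since reads of these genes can be confused, the 3 Klrc counts were also summed, which gave 0.87 ± 0.21 (edgeR adjusted p = 0.0427).

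Klrk1, the NKG2D gene, had the highest CPM of the 5, with 866, 969 and 991 in KO and 418, 698 and 433 in WT. As with the other genes, the second WT library lay between the remaining WT libraries and the KO group. Its log2 fold change was 0.87 ± 0.20 (SE, n = 3 per group, edgeR adjusted p = 0.0414).

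**Figure D1:**
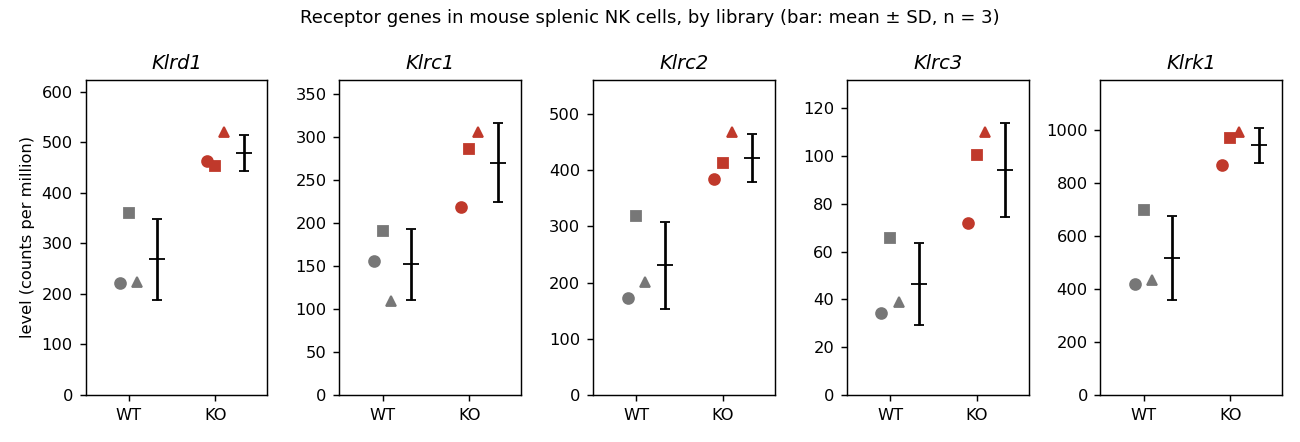
Level in CPM of each receptor gene in the 3 WT and 3 KO mouse libraries, 1 panel per gene with its own axis from 0. Points are libraries (circle, square and triangle for replicates 1 to 3) and bars the mean ± SD. Every KO point lies above every WT point, and the second WT library is the highest WT point in all panels.

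The difference moved with signs of cell composition. Markers of other splenic cells (lymphoid, myeloid, erythroid and platelet) and of ILC1 summed to 3228 to 4921 CPM in KO and 5367 to 9726 CPM in WT. Of 48 such genes tested, 43 had a log2 fold change below 0, with a median of -1.34 against 0.01 over all genes. Of these 48, 13 were called lower and 1, on the T cell list, higher, where 7.43% and 4.44% of all genes were. None of the 49 listed was at 0 in all libraries. The 5 ILC1 markers did not share the fall: 3 were above 0, none was called and the median was 0.17. Their sums overlapped, at 280 to 376 CPM in KO and 327 to 426 CPM in WT. The second WT library, in which the receptor genes were highest for WT, had the lowest marker sum of its group, at 5367 CPM. A list of 12 other NK genes, among them Ncr1, Nkg7 and Gzma, summed to 12033 to 14015 CPM in KO and 6633, 10981 and 6951 CPM in WT. All 12 had a log2 fold change above 0, with 5 called higher and a median of 0.73. The list also holds Tbx21, Il2rb and Prf1, which the study reports as higher in KO NK cells by RT-qPCR. When the libraries were scaled so that these 12 genes were level, 0 of 5 receptor genes were called (edgeR, adjusted p of 0.236 to 0.738). Their log2 fold changes fell to 0.09 to 0.32, while the median of all genes moved to -0.76. Such scaling takes out any rise that the receptor genes share with the list, whatever its source. In bulk RNA, fewer cells of a type and less RNA per cell cannot be told apart, and the part of other cells in the difference was not tested.

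The calls also turned on single libraries. Without the second KO, the third KO, the first WT or the third WT library, 0 of 5 were called (edgeR adjusted p of 0.108 to 0.163), although their median log2 fold change remained at 0.88, 0.79, 0.74 and 0.75. The whole table then held between 0 and 99 calls. Without the second WT library all 5 were called, with adjusted p of 0.00172 to 0.00963 and a median log2 fold change of 1.15, and 26.3% of all genes were called. At the stricter thresholds of the study's methods, an adjusted p under 0.01 with a log2 fold change over 0.5 in size, edgeR called 0 receptor genes and 0 of all genes, while DESeq2 called 5 receptor genes and 11.3% of all genes.

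Within a library, the ratios among the receptor genes overlapped between the groups. The ratio of Klrk1 to Klrd1, per kilobase of exon, was 0.333, 0.381 and 0.340 in KO and 0.337, 0.345 and 0.347 in WT. The groups overlapped, and the log2 ratio differed by 0.03 ± 0.06 (SE; exact permutation p = 0.9, two-sided; with groups of 3 no p below 0.1 can be reached). The ratio of the inhibitory Klrc1 to Klrd1 overlapped too, with a log2 difference of -0.02 ± 0.20 (exact permutation p = 0.9), as did that of Klrc2 to Klrc1, with 0.06 ± 0.24 (exact permutation p = 0.9). Klrc1 made up 31.2% to 42.9% of the Klrc counts, Klrc2 47.6% to 57.7% and Klrc3 9.41% to 12.5%.

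The ratio of Klrk1 to the adaptor gene Hcst did not overlap between the groups. Klrk1 over Hcst was 0.724, 0.744 and 0.819 in KO and 0.583, 0.553 and 0.582 in WT, higher in 3 of 3 KO libraries, with a log2 difference of 0.41 ± 0.06 (exact permutation p = 0.1, the smallest possible). Hcst, encoding DAP10, had 120.2, 130.9 and 121.6 CPM in KO and 72.1, 126.9 and 74.8 CPM in WT, and its log2 fold change of 0.45 ± 0.21 did not pass the test (edgeR adjusted p = 0.164). Tyrobp, encoding DAP12, did not overlap between groups but did not pass either, with 0.32 ± 0.11 (edgeR adjusted p = 0.0820). The summed receptor genes over the 12 other NK genes, per kilobase, were also higher in 3 of 3 KO libraries, by 0.22 ± 0.10 on the log2 scale (exact permutation p = 0.1), which became 0.13 without the third KO library.

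The order of the mouse genes by level depended on the length used. Per kilobase of all annotated exons Klrd1 came first in both groups (374 ± 27.9 CPM per kilobase in KO and 209 ± 62.6 in WT, SD, n = 3) and Klrc2 last (72.6 ± 7.27 and 39.7 ± 13.3), while Klrc1, Klrk1 and Klrc3 lay between with overlapping neighbours, and in WT Klrc3 overlapped Klrc2 as well. Per kilobase of 1 protein-coding transcript Klrk1 came first, at 742 ± 52.7 in KO and 407 ± 124 in WT, ahead of Klrd1 and Klrc2. These last genes were apart from their neighbours in KO, whereas in WT Klrd1 overlapped both. Klrc1 and Klrc3 overlapped at the bottom in both groups. The range over the WT libraries, highest over lowest, ran from 1.63 for Klrd1 to 1.93 for Klrc3, and over the KO libraries from 1.14 for Klrk1 to 1.53 for Klrc3.

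Genes next to the receptors did not all move with them. Within 300 kb on either side, Klre1, a lectin-like receptor gene beside Klrd1, rose by a log2 fold change of 0.84 ± 0.17 (edgeR adjusted p = 0.0350), and Klra5, of the Ly49 family, by 1.36 ± 0.28 (edgeR adjusted p = 0.0350). Klri2 had 0.77 ± 0.22 and missed the threshold (edgeR adjusted p = 0.0571), while Klri1, between Klrc1 and Klri2, had -0.13 ± 0.10 (edgeR adjusted p = 0.354). On the other flank Gabarapl1, an autophagy gene, fell by 0.65 ± 0.12 on the log2 scale (edgeR adjusted p = 0.0304). Clec9a, a dendritic cell gene, fell by 1.17 ± 0.27 (edgeR adjusted p = 0.0423). The remaining tested neighbours, Clec12a (-0.98), Clec1b (-0.63), Clec1a (-0.96), Olr1 (-0.55) and Klra17 (-0.99), were below 0. None of these was called (edgeR adjusted p of 0.0577 to 0.477). Over all genes tested, 4.44% were called higher and 7.43% lower.

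**Figure D2:**
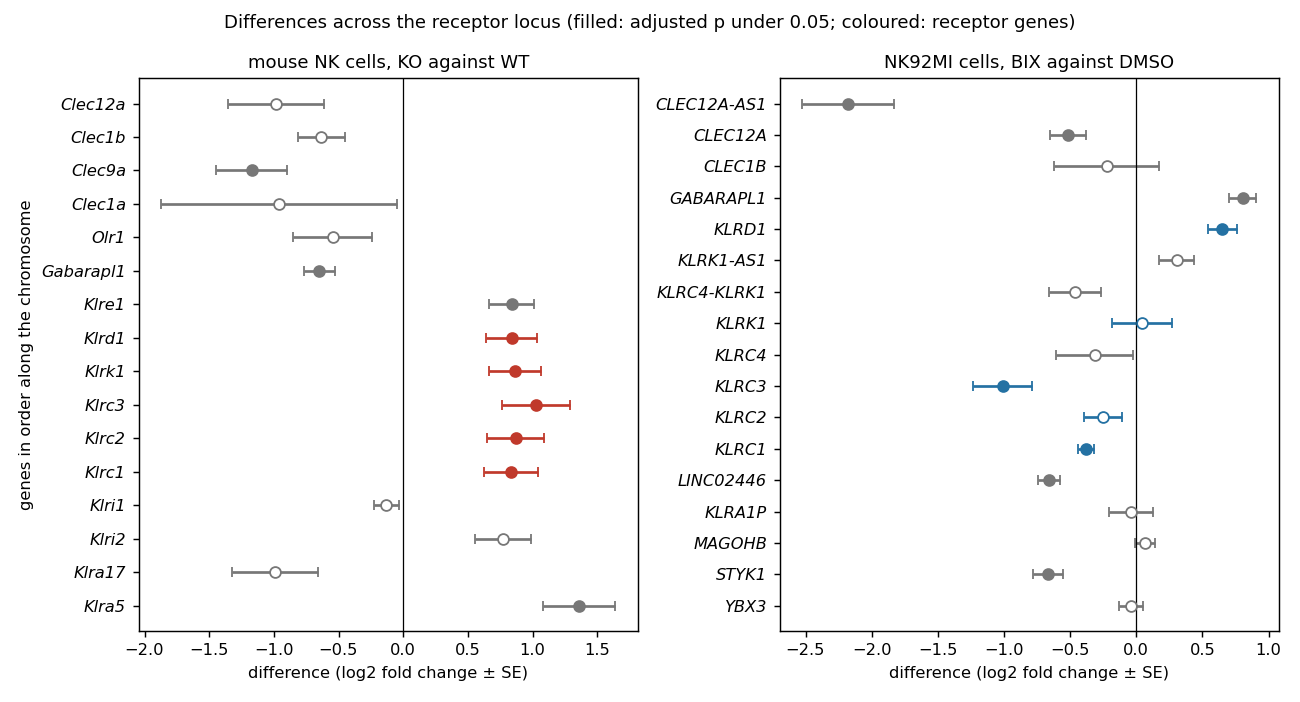
Log2 fold change with SE for the receptor genes (coloured) and tested neighbours within 300 kb (grey), in chromosome order, for mouse KO against WT (left) and human BIX against DMSO (right). Filled points have an edgeR adjusted p under 0.05. The 5 mouse receptor genes line up between 0.83 and 1.02, whereas the human ones run from -1.01 to 0.65.

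Ligands, adaptors and regulators were read from lists of genes. Of 8 genes for Qa-1 and its peptide supply, 2 were called higher, the peptide transporter gene Tap2 (0.28 ± 0.07, edgeR adjusted p = 0.0485) and the class I gene H2-K1 (0.47 ± 0.13, edgeR adjusted p = 0.0499). H2-T23, the Qa-1 gene itself, had 0.11 ± 0.08 (edgeR adjusted p = 0.325). Of 9 NKG2D ligand genes 5 were listed in the table used here, and of these Ulbp1 alone passed the filter on low counts, with 0.65 ± 0.24 (edgeR adjusted p = 0.0973). Of 18 adaptor and signalling genes 1 was called, the kinase gene Lck, which also marks T cells (0.73 ± 0.19, edgeR adjusted p = 0.0484).

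Among 16 genes of cytokine pathways 2 were higher, Jak3 (0.72 ± 0.13, edgeR adjusted p = 0.0279) and Il2rg, the common cytokine receptor chain (0.47 ± 0.12, edgeR adjusted p = 0.0472). Among 12 transcription factor genes 3 were higher: Id2 (0.89 ± 0.14, edgeR adjusted p = 0.0269), Tbx21, encoding T-bet (0.90 ± 0.19, edgeR adjusted p = 0.0368), and Nfil3 (0.65 ± 0.15, edgeR adjusted p = 0.0406). No gene of these 5 lists was called lower, where 7.43% of all genes tested were called lower and 4.44% higher. The medians were 0.18 for Qa-1 presentation, 0.06 for adaptors, 0.31 for cytokine pathways and 0.54 for transcription factors, beside 0.01 over all genes tested.

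The genes whose log2 CPM followed Klrk1 most closely over the 6 mouse libraries were Cysltr2, Cd96 and Kcnk5 (Pearson r of 0.999, 0.997 and 0.997 among 9127 genes searched). For Klrd1 they were As3mt, Klhl4 and Slc35e4 (r of 0.998, 0.998 and 0.997). The 6 points include the group difference itself, and r over so few libraries is given as a description.

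In the human comparison, which asks how NK92MI cells respond to inhibition of EHMT2, the receptor genes did not move together. KLRD1 rose 1.57-fold, KLRC1 and KLRC3 fell, and neither KLRC2 nor KLRK1 passed the test. Thus 1 of 5 was called higher and 2 of 5 lower (edgeR quasi-likelihood test, adjusted p under 0.05 over 12727 genes), where 36.9% of all genes tested were called, 18.4% in each direction. DESeq2 called 35.1% of all genes. At the stricter thresholds KLRD1 and KLRC3 were called, and 11.7% of all genes by either tool. Without overlap between the groups, 24.1% of all genes were higher and 23.9% lower, 47.9% in all.

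KLRD1 had 34.0, 30.6 and 26.3 CPM with BIX and 20.3, 20.1 and 17.5 CPM with DMSO. All BIX libraries were above all DMSO libraries, with a log2 fold change of 0.65 ± 0.11 (SE, n = 3 per group, edgeR adjusted p = 0.000481). KLRC1, the NKG2A gene, went the other way, with 286, 257 and 272 CPM with BIX and 352, 346 and 364 CPM with DMSO. The groups were again apart, and the gene fell by 0.38 ± 0.06 on the log2 scale (edgeR adjusted p = 0.000354).

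KLRC2 had 11.3, 15.0 and 12.1 CPM with BIX and 14.8, 13.1 and 18.0 CPM with DMSO. The groups overlapped, and its log2 fold change of -0.25 ± 0.14 did not pass (edgeR adjusted p = 0.186), although it did without the second BIX library (-0.38, edgeR adjusted p = 0.0367). Without the first BIX library it was -0.16 (edgeR adjusted p = 0.485), and without the last control library -0.12 (edgeR adjusted p = 0.597). KLRC3, at 3.17, 5.17 and 2.48 CPM with BIX and 7.16, 6.90 and 7.75 CPM with DMSO, fell by 1.01 ± 0.22 on the log2 scale (edgeR adjusted p = 0.00287). These were 42 to 88 reads per BIX library and 118 to 131 per DMSO library. Summed, KLRC2 and KLRC3, whose reads are hardest to tell apart, fell by 0.46 ± 0.14 (edgeR adjusted p = 0.0194), and KLRC1, KLRC2 and KLRC3 together by 0.39 ± 0.06 (edgeR adjusted p = 0.000275). Of exon bases, 43.3% in KLRC3 and 74.6% in KLRC2 are free of other annotated genes. A sum does not recover any reads lost to genes outside it.

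KLRK1 had 3.65, 3.88 and 2.60 CPM with BIX and 3.96, 2.92 and 2.96 CPM with DMSO, which is 44 to 68 reads per library. The groups overlapped, with a log2 fold change of 0.04 ± 0.23 (edgeR adjusted p = 0.905), an error too wide to tell a change of the size seen for KLRC1 from none. The read-through gene KLRC4-KLRK1 had -0.46 ± 0.20 (edgeR adjusted p = 0.0805), and both summed had -0.28 ± 0.17 (edgeR adjusted p = 0.236). KLRC4-KLRK1 lies on the same strand, and 37.6% of KLRK1 exon bases are free of other genes. The antisense gene KLRK1-AS1 takes away no further bases. KLRC4, the neighbouring NKG2F gene, had -0.32 ± 0.29 (edgeR adjusted p = 0.427).

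**Figure D3:**
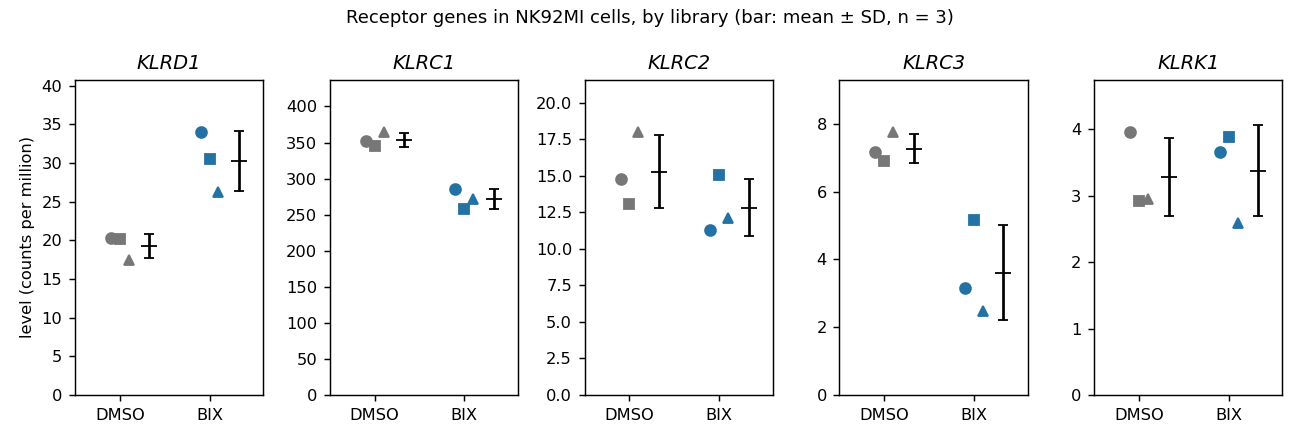
Level in CPM of each receptor gene in the 3 DMSO and 3 BIX libraries of NK92MI cells, 1 panel per gene with its own axis from 0. Points are libraries and bars the mean ± SD. BIX points lie above DMSO for KLRD1 and below DMSO for KLRC1 and KLRC3, and they overlap for KLRC2 and KLRK1.

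The opposite moves of KLRC1 and its partner KLRD1 changed their ratio within each library. Per kilobase of exon, KLRC1 over KLRD1 was 53.7, 53.8 and 66.0 with BIX and 111, 109.7 and 133 with DMSO. All 3 BIX libraries were lower, with a log2 difference of -1.03 ± 0.13 (SE; exact permutation p = 0.1, two-sided, the lower limit for groups of 3). The size of this ratio rests on an annotated KLRD1 transcript set of 17.4 kb, most of it in 1 long transcript, whereas its change between groups does not depend on length. KLRK1 over KLRD1 was lower in 3 of 3 BIX libraries as well, by 0.61 on the log2 scale (-0.61 ± 0.16, exact permutation p = 0.1). KLRC2 over KLRC1 overlapped between groups (0.13 ± 0.20, exact permutation p = 0.6).

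**Figure D4:**
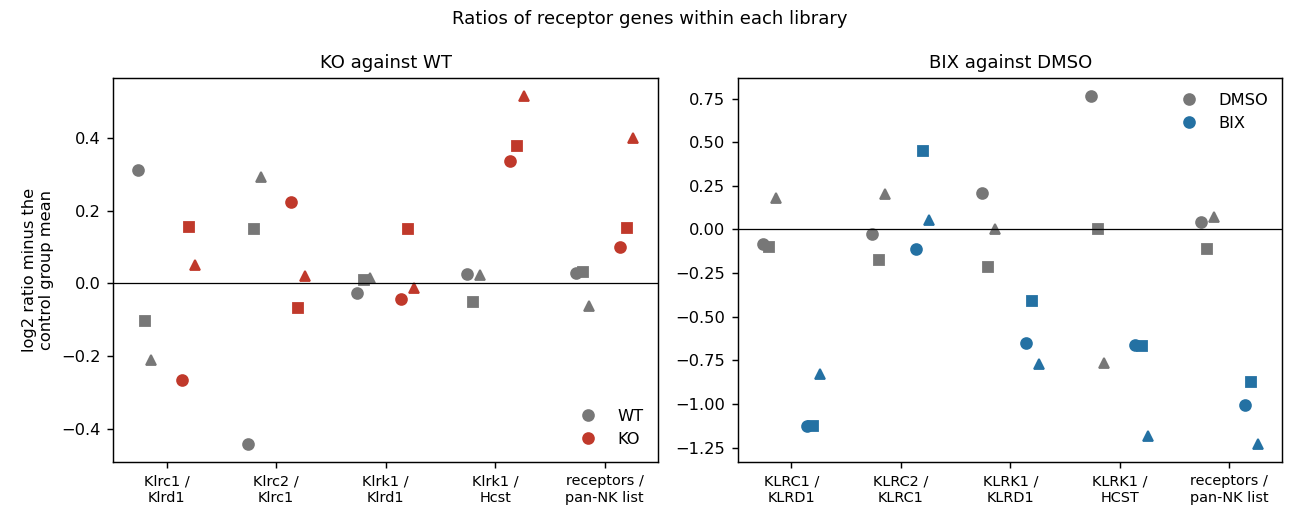
Log2 ratio of receptor genes within each library, per kilobase of exon and minus the mean of the control group, for mouse (left) and human (right). Points are libraries. Mouse ratios among the receptors overlap between groups, while KLRC1 over KLRD1 is lower in the 3 BIX libraries by a mean of -1.03.

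Most KLRC counts of NK92MI cells were of the inhibitory chain: KLRC1 made up 92.7% to 95.2% of them in the 6 libraries. This share may be too high, since KLRC2 and KLRC3 can lose more reads to overlapping genes. Of exon bases, 74.6% in KLRC2 and 43.3% in KLRC3 are free of other genes, against 98.6% in KLRC1. Per kilobase of exon the order was KLRC1 (99.6 ± 5.20 CPM per kilobase with BIX and 130 ± 3.48 with DMSO, SD, n = 3), KLRC2 (8.52 ± 1.30 and 10.2 ± 1.65) and KLRC3 (3.15 ± 1.22 and 6.35 ± 0.382), each apart from the next, with KLRD1 and KLRK1 below. KLRD1 and KLRK1 overlapped with DMSO, and per kilobase of 1 coding transcript their order was turned. The low place of KLRD1 rests on 17.4 kb of annotated exon, or on 1 transcript of 15549 bases with 540 coding. Without division by length, its mean of 30.3 CPM with BIX and 19.3 with DMSO was above that of KLRC2 (12.8 and 15.3). The adaptors were scarce. HCST, of whose exon bases 54.3% are free of an overlapping gene, had 8 to 21 reads per library (0.79 ± 0.37, edgeR adjusted p = 0.111) and TYROBP 4 to 9, too few to be tested. KLRK1 over HCST overlapped between groups (-0.84 ± 0.47 on the log2 scale, exact permutation p = 0.3). The difference was -0.46 without the first control library and -1.22 without the last (exact permutation p = 0.4 and 0.1).

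NCAM1, encoding CD56, had 323 to 374 CPM in the BIX libraries and 340 to 347 CPM in DMSO. It was not called (edgeR adjusted p = 0.814). It is 1 of 7 genes on a list of human NK markers, all tested, of which 3 were called higher and 3 lower. KLRB1, among the 12 other NK genes, had 3 to 8 reads per library and was not tested. CD3E, listed as a T cell gene, had 516 to 591 CPM with BIX and 486 to 505 CPM with DMSO (0.16 ± 0.06, edgeR adjusted p = 0.0602), and it was the sole tested gene of the 5 on that list. With 18.4% of all genes called in each direction, the 12 other NK genes split evenly, 5 called higher and 5 lower of 11 tested. Their sum was higher with BIX, at 7302 to 8983 CPM against 5497 to 5940, led by GZMA (0.91 ± 0.08, edgeR adjusted p = 1.51e-06) and CCL5 (0.94 ± 0.08, edgeR adjusted p = 2.22e-06). The summed receptor genes over this sum, per kilobase, were lower in 3 of 3 BIX libraries. The log2 difference was -1.04 ± 0.12 (exact permutation p = 0.1). Per kilobase KLRC1 made up most of the receptor sum (means of 99.6 with BIX and 130 with DMSO, against 1.74 and 1.11 for KLRD1). GZMA was the largest part of the NK sum (3626 and 1924). The value therefore mostly follows KLRC1 and GZMA, and KLRD1 itself rose.

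The class I side rose in the same cells. Of 9 tested genes for HLA-E and its peptide supply, 7 were called higher and 0 lower, where 18.4% of all genes were called in each direction. The list had a median log2 fold change of 0.59 beside -0.01 over all genes. HLA-E, the ligand of CD94/NKG2A, had 329 to 370 CPM with BIX and 230 to 268 CPM with DMSO (0.50 ± 0.07, edgeR adjusted p = 0.000131). B2M, the class I light chain, rose by 0.73 ± 0.07 (edgeR adjusted p = 4.70e-06), TAP1 by 0.64 ± 0.07 (edgeR adjusted p = 7.56e-06) and HLA-B by 0.90 ± 0.11 (edgeR adjusted p = 2.27e-05). Reads of the class I genes can be confused with each other. Of the 8 NKG2D ligand genes, MICA (-0.16 ± 0.22, edgeR adjusted p = 0.609) and MICB (0.14 ± 0.10, edgeR adjusted p = 0.316) were tested and neither was called.

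More signalling genes fell than rose. Of 17 adaptor and signalling genes tested, 9 were called lower, including FYN (-0.66 ± 0.06, edgeR adjusted p = 4.37e-06), ZAP70 (-0.50 ± 0.07, edgeR adjusted p = 7.47e-05), PLCG2 (-0.53 ± 0.08, edgeR adjusted p = 0.000125) and PLCG1 (-0.38 ± 0.07, edgeR adjusted p = 0.000531). GRB2, an adaptor of the DAP10 pathway, was the 1 called higher (0.17 ± 0.06, edgeR adjusted p = 0.0444). The median of this list was -0.23, and 18.4% of all genes tested were called in each direction.

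Of 16 genes of cytokine pathways 4 were higher and 5 lower, where 18.4% of all genes tested were called in each direction. The list median was 0.02, with IL2RG at 0.65 ± 0.14 (edgeR adjusted p = 0.00217) and STAT5B at -0.57 ± 0.06 (edgeR adjusted p = 9.62e-06). Of 12 transcription factor genes 5 were higher, among them RUNX3 (0.64 ± 0.06, edgeR adjusted p = 2.82e-06) and ZEB2 (0.80 ± 0.08, edgeR adjusted p = 8.94e-06). The 5 that were lower included TBX21 (-0.46 ± 0.06, edgeR adjusted p = 7.61e-05) and ID2 (-0.35 ± 0.07, edgeR adjusted p = 0.00104). These last 2 genes were higher in the mouse KO libraries, by 0.90 and 0.89. The mouse and human comparisons differ in species, in cell source and in how EHMT2 was targeted (gene deletion or an inhibitor), so the difference between them was not tested.

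The neighbours of the human genes also went both ways, where 18.4% of all genes tested were called in each direction. The flank genes CLEC1B (-0.22), KLRA1P (-0.04), MAGOHB (0.06) and YBX3 (-0.04) were not called (edgeR adjusted p of 0.520 to 0.863). Neither was KLRK1-AS1 (0.31 ± 0.13, edgeR adjusted p = 0.0860). GABARAPL1, next to KLRD1, rose by 0.81 ± 0.10 (edgeR adjusted p = 4.50e-05). LINC02446, beyond KLRC1, fell by 0.66 ± 0.08 (edgeR adjusted p = 4.71e-05) and STYK1 by 0.67 ± 0.11 (edgeR adjusted p = 0.000514). CLEC12A fell by 0.52 ± 0.14 (edgeR adjusted p = 0.00861) and the antisense gene CLEC12A-AS1, whose span overlaps its start, by 2.18 ± 0.35 (edgeR adjusted p = 0.000273). Where their exons overlap, reads cannot be assigned without strand.

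For KLRK1 the most similar genes over the 6 libraries were BARD1, TMEM106B and CRTC3 (Pearson r of 0.996, 0.980 and 0.972 among 8553 genes searched), and none of these was called. For KLRD1 they were GDE1, SMIM8 and ZNF558 (r of 0.992, 0.991 and 0.985). These are the highest r of many genes over 6 libraries, and KLRK1 had 44 to 68 reads per library. They are given as a description only.

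Sequence upstream of 2 of the 5 human genes was found in the RefSeq promoter table (GRCh38.p14), and these are KLRC1 and KLRC3, both lower with BIX. The 250 bases before each start are shown, with motif matches in capitals.
KLRC1 upstream, chr12:10454686-10454935, minus strand: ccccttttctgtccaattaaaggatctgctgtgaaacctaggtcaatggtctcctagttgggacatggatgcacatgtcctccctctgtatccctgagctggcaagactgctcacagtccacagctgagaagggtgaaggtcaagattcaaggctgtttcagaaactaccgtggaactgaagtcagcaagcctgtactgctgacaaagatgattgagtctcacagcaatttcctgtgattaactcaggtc
KLRC3 upstream, chr12:10420596-10420845, minus strand: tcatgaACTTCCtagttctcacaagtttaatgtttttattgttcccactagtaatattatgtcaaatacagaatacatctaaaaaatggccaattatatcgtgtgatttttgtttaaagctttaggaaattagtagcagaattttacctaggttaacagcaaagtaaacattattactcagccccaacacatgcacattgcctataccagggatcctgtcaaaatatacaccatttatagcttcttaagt

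Both strands were searched for TGTGGT, read by RUNX factors, GGTGTGA, read by T-box factors, and GGAAGT, read by ETS factors. KLRC1 held 0 matches and KLRC3 held 1, to the ETS letters on the reverse strand. Among 35116 promoters, 3855 held the RUNX letters, 970 the T-box letters (2.76%) and 6847 the ETS letters (19.5%), so a match or its absence describes these letters in this window and no more.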

How the data were processed

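Poly(A) RNA libraries were sequenced by the authors, and reads were trimmed with fastp (0.23.4), aligned with STAR (2.7.11b) to mm10 or hg38 and counted per gene with HTSeq (2.0.3). The deposited values are raw counts per gene symbol, and the annotation release and strand setting are not given in the sources used here. Totals were 25891680 to 37438868 counts per mouse library and 16579469 to 17165446 per human library. Intervals are not given for single counts, since replicate spread was used. Groups came from the sample titles. Control columns of the human table name a group but no numbered sample.

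Counts were tested per species with edgeR 4.0.16 (TMM scaling, filterByExpr, quasi-likelihood test, two-sided) in R 4.3.3, calling genes whose Benjamini-Hochberg adjusted p, taken across each species' whole table, was under 0.05. The SE is the log2 fold change divided by the root of F. DESeq2 1.42.0 and limma 3.58.1 were alternatives, with other scalings, filters and left-out libraries. CPM values use TMM-scaled totals. Ratios used the exact permutation test over libraries. The scripts were tested on simulated data.

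Genes named are all receptor genes, Ehmt2, the tested neighbours within 300 kb, and up to 4 called genes per direction and list. The 3 most similar genes with mean CPM of at least 10 are also named. HLA-E, H2-T23, adaptors, MICA, MICB, Ulbp1, NCAM1 and KLRB1 were named for their role after values were seen. The genes and lists were chosen with earlier results of these data known. Positions come from GENCODE annotation. The values of 1 gene of the class I list are not reported here.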

Additional observations from a re-analysis of the deposited data

How the results depend on the processing

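In mouse, the 5 calls among the receptor genes held under DESeq2 size factors, library totals, without filtering, with genes kept from a mean CPM of 1, and with DESeq2 or limma-voom as the test, and they went to 0 under scaling to the 12 NK genes and under the stricter thresholds. Leaving out each library in turn gave 0 to 5 calls. The lists, here with the 12 NK genes among them, had 12 calls, which became 31 with DESeq2 and 27 under NK scaling (0 of them higher). Over all genes 11.9% were called, 23.4% with DESeq2 and 59.4% under NK scaling, where 7800 were lower and 35 higher. The list calls became 29 at an adjusted p under 0.1 and 0 under the stricter thresholds (15 with DESeq2, which called 11.3% of all genes). With 1 library left out they ran from 0 to 37 (0% to 26.3% of all genes). Chosen after seeing the data, an unadjusted p under 0.05 gave 36, and leaving out the second WT library at the stricter thresholds gave 19. Deviations of same-numbered mouse libraries correlated at 0.28, 0.35 and -0.19, and those of unlike numbers at -0.44 to 0.28. These values do not settle whether the numbers mark pairs, and the main fit did not use them as pairs. With the replicate number as a block, 5 receptor genes and 34 list genes were called, and 24.4% of all genes against 11.9% without it. Leaving out 1 library turned the sign of the ratios Klrc1/Klrd1 (0.10 without the first KO, 0.14 without the first WT library, range -0.12 to 0.14), Klrc2/Klrc1 (-0.02 and -0.16 likewise, range -0.16 to 0.21) and Klrk1/Klrd1 (-0.028 without the second KO library, range -0.028 to 0.069). The cause was not tested.

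In human, 3 to 4 receptor genes and 35 to 43 list genes were called with 1 library left out (26.7% to 38.5% of all genes). The stricter thresholds called 2 receptor genes (11.7% of all genes), and the lists fell from 43 to 16 (17 with DESeq2). KLRK1 turned negative in 4 fits (-0.012 and -0.067 without BIX replicates 1 and 2, -0.037 and -0.029 without control columns 2 and 3, range -0.067 to 0.20), and KLRC2/KLRC1 turned to -0.028 without the second BIX library (range -0.028 to 0.25). The receptor genes over the NK sum moved to -0.83 without division by length. No paired analysis was possible because the human control columns carry no sample number. Low counts limit KLRC3, KLRK1 and the adaptors.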
